A study of Mus musculus with 3 samples.

Results

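Broad open regions were taken from the chromatin accessibility maps of mouse hair follicle stem cells (HFSCs). Accessibility intervals of 3 libraries that shared at least 1 base were merged, and a merged region was kept where each library had an interval of at least 1000 bases inside it. On chromosomes 1 to 19 this gave 1129 broad regions of 149028 merged regions, and of the 19078 merged regions with an interval in all 3 libraries. The remaining 17949 regions with an interval in all 3 libraries are called other shared regions below and serve as the comparison. The regions were thus chosen by the interval widths, which are given as a description and without a test.

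Accessibility was read by Omni-ATAC-seq. Its Tn5 transposase inserts adapters wherever DNA is exposed, here in dorsal skin of 6-month-old mice in telogen, when follicles rest. According to the paper, the sort for CD34+CD49f+Sca-1- cells holds both bulge stem cells and hair germ cells. Msx2-WT was 1 library of wild-type, hair cycle-matched C57BL/6J mice, and Msx2-KO was 2 libraries of mice homozygous for a germline Msx2 knockout in which a pMC1-neo cassette sits upstream of exon 2, so the loss was not limited to the follicle. How many animals each library pooled is not given in the sources used here, and the mice had no treatment. The library of Msx2-WT is called WT below, and replicates 1 and 2 of Msx2-KO are called KO1 and KO2.

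The libraries differed before any region was chosen. The WT list held 104386 summits, the KO1 list 36508 and the KO2 list 83322, and autosomal intervals of at least 1000 bases made up 2.69%, 15.6% and 18.5% of the intervals in that order. The batch label gives 1 date to WT and another to both Msx2-KO libraries, so the batch cannot be told apart from the genotype. Peaks in the KO1 and KO2 files are named with cKO although their labels name a plain knockout, and those of KO1 also carry another library number than its label. The labels were followed, and whether the KO1 list belongs to another library was not tested. With 1 WT library no p-value between genotypes was computed. Of 11 HFSC markers, 11 had a promoter summit in WT, 9 in KO1, where Cd34 and Nfatc1 had none, and 11 in KO2. Leukocyte promoters had a summit for 0, 0 and 1 of 6 markers, while 4, 2 and 4 of 6 melanocyte markers and 3, 2 and 4 of 5 fibroblast markers had one, as did 4, 0 and 2 of 5 markers of interfollicular epidermis and 3, 1 and 2 of 4 of endothelium. No start of these genes lay in a broad region.

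Most accessible intervals mark a short stretch from which nucleosomes are cleared by bound factors. Wider stretches arise where several such sites lie close together, where promoters in CpG islands keep the surrounding DNA free of stable nucleosomes, or where a locus is transcribed so heavily that nucleosomes are displaced, as at tRNA, histone and ribosomal RNA genes. A copied or repeated sequence can also gather reads from elsewhere in the genome and look open across its whole length.

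The reference bases of a few broad regions show how different their DNA is. Each window below holds 120 bases on the plus strand of GRCm38, lies inside the region as near as an untranslated-exon-free window allows to the strongest summit of KO2, and has its CpG pairs in capitals. The first are among the widest promoters, that of Ppp2r3d, a regulatory subunit of protein phosphatase 2A, and that of Fzd1, a Wnt receptor. The promoter of S100a14, a calcium-binding protein of epithelia, is shown after them because it is CpG-poor.
Ppp2r3d, chr9:124424062-124424181: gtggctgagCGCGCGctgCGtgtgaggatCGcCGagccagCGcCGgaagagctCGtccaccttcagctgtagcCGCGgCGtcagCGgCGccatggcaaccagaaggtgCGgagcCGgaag
Fzd1, chr5:4758036-4758155: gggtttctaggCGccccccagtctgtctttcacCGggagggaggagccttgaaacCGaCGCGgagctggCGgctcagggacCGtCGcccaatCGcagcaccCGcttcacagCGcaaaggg
S100a14, chr3:90526736-90526855: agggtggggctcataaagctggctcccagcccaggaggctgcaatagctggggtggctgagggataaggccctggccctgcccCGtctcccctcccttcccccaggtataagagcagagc
These windows held 16, 11 and 1 CpG pairs, in that order, at a G+C content of 70.0%, 66.7% and 65.0%. The S100a14 window therefore had nearly the G+C content of the Fzd1 window with 1 CpG pair against 11.

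The next windows come from distal broad regions. The first 2 are the widest of all, a stretch of chromosome 17 that covers an annotated ribosomal RNA gene, of which the window shows a part annotated as the noncoding gene Gm26917, and a stretch of chromosome 1 annotated as pseudogenes. The third lies upstream of Sostdc1, a secreted antagonist of BMP and Wnt signalling in skin appendages, over an exon of the long noncoding gene Gm40392, and the fourth inside Myof, which ranked first by excess in Msx2-KO. Capitals again mark CpG pairs.
Gm26917, chr17:39843665-39843784: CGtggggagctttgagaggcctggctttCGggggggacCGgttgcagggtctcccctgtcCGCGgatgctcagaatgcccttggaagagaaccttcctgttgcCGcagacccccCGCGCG
Pseudogene stretch, chr1:24614604-24614723: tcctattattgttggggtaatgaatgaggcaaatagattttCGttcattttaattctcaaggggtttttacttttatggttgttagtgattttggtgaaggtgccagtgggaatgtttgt
Sostdc1 upstream, chr12:36290960-36291079: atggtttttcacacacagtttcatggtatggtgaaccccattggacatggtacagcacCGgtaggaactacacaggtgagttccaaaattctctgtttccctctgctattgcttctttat
Myof intron, chr19:37959564-37959683: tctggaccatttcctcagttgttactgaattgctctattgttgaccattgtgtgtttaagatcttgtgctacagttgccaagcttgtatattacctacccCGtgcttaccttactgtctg
The Gm26917 window held 9 CpG pairs and each of the other 3 held 1, at a G+C content of 66.7%, 35.0%, 43.3% and 41.7%. Beside them stands a window of a tRNA cluster near Hfe2, in which the capitals mark 48 of the 72 bases of the histidine tRNA gene n-THgtg8, which is read from the minus strand.
tRNA cluster, chr3:96500390-96500509: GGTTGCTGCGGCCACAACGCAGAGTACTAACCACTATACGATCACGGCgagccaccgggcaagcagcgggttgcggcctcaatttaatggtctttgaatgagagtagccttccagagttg
The windows of S100a14, Sostdc1, Myof and the tRNA cluster were chosen after their values were seen.

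Within the broad regions, the widest interval of WT had a median of 1200 bases with a range of 1000 to 4212. In KO1 the median was 1281 bases (1000 to 4314), and in KO2 it was 1461 bases (1000 to 5642). The merged regions spanned a median of 1584 bases, from 1039 to 5669. WT was the narrowest library in 654 of the 1129 regions (57.9%), KO1 in 387 and KO2 in 88. The plot of interval widths shows the WT histogram falling most steeply from the limit.

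**Figure D1:**
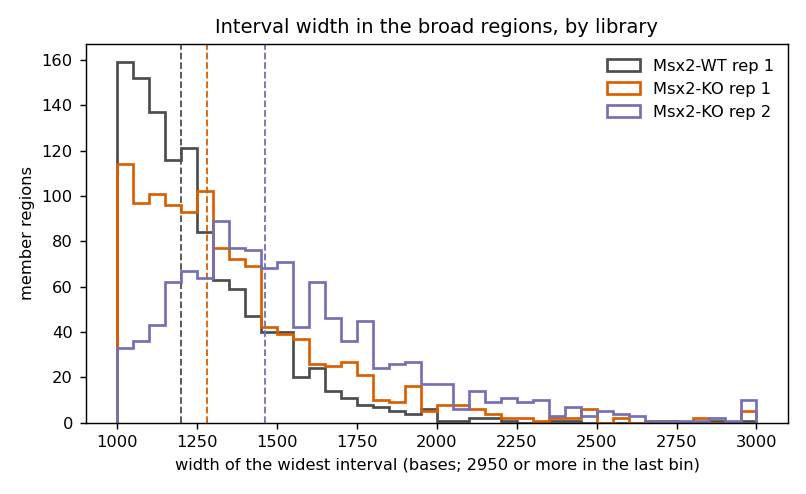
Number of broad regions (y axis) by the width in bases of the widest interval (x axis) in each of the 3 libraries, with dashed lines at the medians. The medians stand at 1200 bases in WT, 1281 in KO1 and 1461 in KO2, and the last bin gathers intervals of 2950 bases or more.

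The libraries mostly saw the same stretch. In 873 of the 1129 regions the widest intervals of all 3 libraries had at least 1000 bases in common, the median common stretch was 1082 bases, and in 3 regions the intervals had no base in common. Among regions where exactly 2 libraries passed the limit, WT was the library under it in 2682, KO1 in 592 and KO2 in 51. Membership was therefore set mainly by the width in WT. Just inside the limit, with 1000 bases in their narrowest library, were a region upstream of Sema3c and the promoters of Nectin2 and Sin3a, and just outside it, with 999 bases, were a region upstream of Tsga10ip and the promoter pairs of Smim19 and Slc20a2 and of Dzip3 and Cip2a. From 1000 to 1019 bases there were 101 regions and from 980 to 999 there were 115.

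Broad regions were promoters more often than other shared regions. A region was called a promoter where the strongest summit of each library lay within 1500 bases of a protein-coding start, and distal where none did. Of the broad regions, 633 were promoters (56.1%, 95% Wilson interval 53.2 to 58.9), 485 were distal (43.0%) and 11 were mixed. Of the other shared regions, 41.6% were promoters (40.9 to 42.3). Wilson intervals here cover counting error over regions only, and regions of 1 genome are not replicates.

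The share did not keep rising with width. Among shared regions whose narrowest library had 200 to 399 bases, 25.0% were promoters, and the share was 41.5% at 400 to 599 bases, 55.1% at 600 to 799 and 61.4% (59.2 to 63.5) at 800 to 999. Past the limit it was 56.5% (52.9 to 60.1) at 1000 to 1199 bases, 55.1% at 1200 to 1399, 59.6% at 1400 to 1599 and 46.3% (32.1 to 61.3, n = 41) from 1600 bases. The Wilson intervals overlapped from 1 of these bins past 800 bases to the next. For the 1129 broad regions as a set the share was 56.1% (53.2 to 58.9). That was below the 61.4% (59.2 to 63.5) at 800 to 999 bases, and the Wilson intervals of these shares did not overlap.

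**Figure D2:**
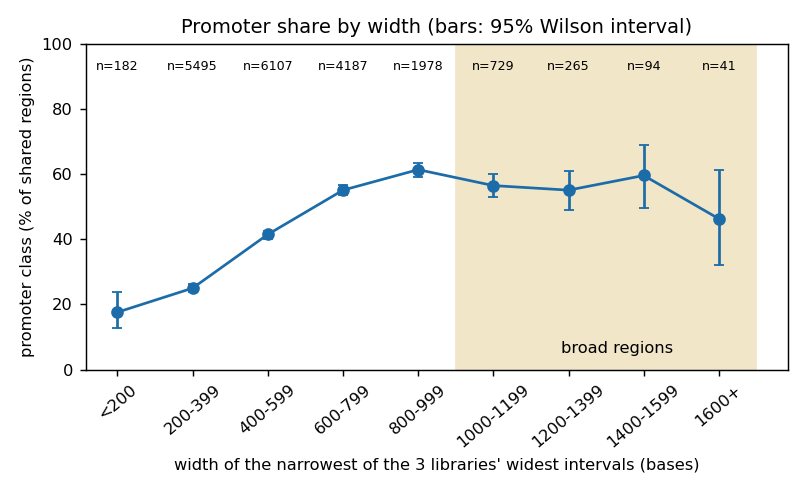
Percent of shared regions in the promoter class (y axis) by the width in bases of the narrowest of the 3 libraries' widest intervals (x axis), with 95% Wilson intervals as bars and the number of regions above each point. The share climbs from 17.6% under 200 bases to 61.4% at 800 to 999 and stays between 46.3% and 59.6% in the shaded broad regions.

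The density of genes per base did not differ in the same way. Broad regions covered 1.89 Mb and held 391 protein-coding gene starts per Mb, while other shared regions covered 20.6 Mb and held 396. Starts of long noncoding RNA genes stood at 67.2 against 53.9 per Mb. tRNA genes stood at 31.2 against 4.32 per Mb, the kind with the largest ratio of the 3. A protein-coding or long noncoding RNA gene was counted once in each region that held one of its starts. A tRNA gene was counted where any of its bases lay in the region.

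Broad regions also held more summits in each interval. The widest interval had a mean of 2.04 summits in WT, 1.30 in KO1 and 1.63 in KO2, against 1.14, 1.04 and 1.17 in other shared regions. More than 1 summit was called in 68.6%, 25.7% and 45.2% of broad regions and in 12.9%, 3.67% and 14.4% of other shared regions. Every library had more than 1 summit in 154 broad regions (13.6%), and every library had exactly 1 in 209 (18.5%). A wider interval has more room for summits, and per 1000 bases the broad regions held fewer of them, with 1.62, 0.959 and 1.06 against 1.91, 1.37 and 1.16.

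**Figure D3:**
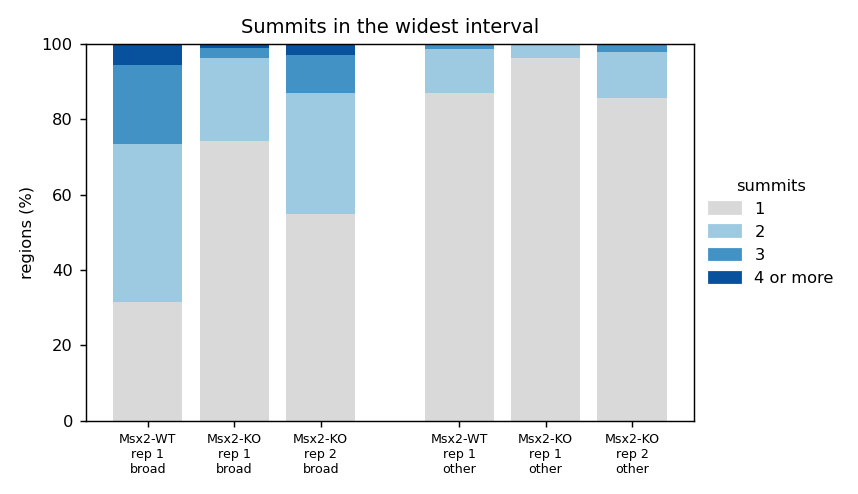
Percent of regions (y axis) with 1, 2, 3 and 4 or more summits in the widest interval, for the 1129 broad and the 17949 other shared regions in each library (x axis). A single summit was called in 31.4%, 74.3% and 54.8% of broad regions in WT, KO1 and KO2.

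The summits of 1 interval lay far apart. The median distance between neighbours was 414 bases in WT, 481 in KO1 and 452 in KO2, and 17.2%, 6.71% and 8.02% of the distances fell at 150 to 249 bases, about the spacing of 1 nucleosome. The peak caller worked on extended tags, and the part of that extension in these distances was not tested. The position of the strongest summit moved between libraries. It lay within 100 bases in 46.9% of broad regions for WT and KO1, in 48.3% for WT and KO2, and in 49.8% for both Msx2-KO libraries. In other shared regions these shares were 60.7%, 66.8% and 62.4%. The intervals of broad regions are wider by rule and give the summit more room to move, and the part of that in these shares was not tested. The 95% Wilson intervals of the broad-region shares overlapped, 44.0 to 49.9, 45.4 to 51.2 and 46.9 to 52.7.

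At promoters the open stretch reached to both sides of the start. Relative to the nearest start, the strongest summit had a median position of -61 bases in WT, -67 in KO1 and -60 in KO2, where negative values are upstream, and it was upstream in 72.8%, 66.0% and 64.6% of the 633 promoters. In the 539 promoters whose starts all point 1 way, the interval reached a median of 629 bases upstream and 562 downstream in WT, 674 and 625 in KO1, and 753 and 751 in KO2. The position 500 bases upstream of the start was covered in 65.12%, 67.16% and 77.55% of these promoters in WT, KO1 and KO2. The position 500 bases downstream was covered in 54.92%, 63.64% and 77.92%. The stretch was thus nearly symmetric around the start in KO2 and leaned upstream in WT and KO1, and the summit sat upstream in each library.

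**Figure D4:**
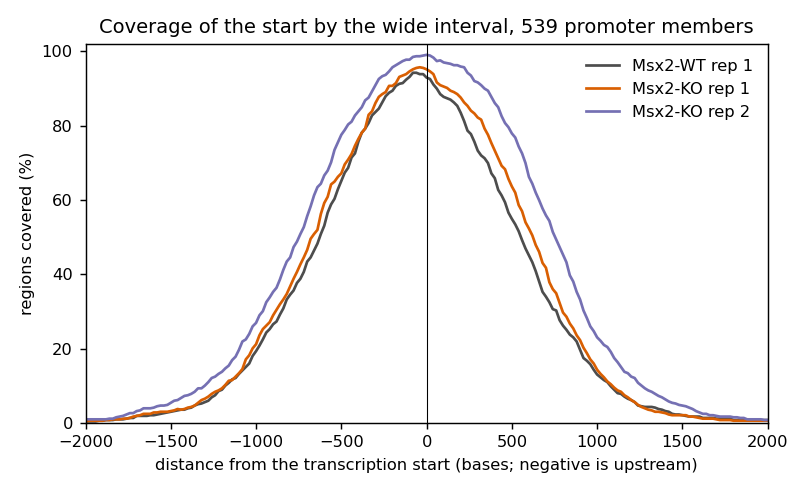
Percent of the 539 broad promoters with starts on 1 strand (y axis) whose widest interval covers each position relative to the transcription start (x axis, bases, negative is upstream), with 1 line for each library. Coverage peaks close to the start and falls away on both sides, sooner downstream in WT and KO1, with median reaches of 629 bases upstream and 562 downstream in WT.

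Broad promoters often held more than 1 start. Of the 633, 361 covered more than 1 annotated start position, against 3822 of 7463 other shared promoters (51.2%), and 96 (15.2%) covered starts of 2 or more genes, against 11.2%. Pairs of genes read in opposite directions from a common stretch made up 80 of them (12.6%, 10.3 to 15.5), against 9.26% (8.62 to 9.94). The broad regions are longer, with a median merged width of 1584 bases against 1087, and the part of that length in these shares was not tested.

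The sequence of broad promoters was close to that of other promoters. The 200 bases around the strongest summit of KO2 had a median G+C content of 65% against 65.5%, and the whole region had a ratio of observed to expected CpG pairs of 0.747 against 0.745. A G+C content above 55% together with a CpG ratio above 0.65, as in CpG islands, was found in 63.5% (59.7 to 67.2) against 62.5% (61.4 to 63.6). Distal broad regions had a median G+C content of 49.5% against 49% and a CpG ratio of 0.259 against 0.229. Over all broad regions the median at the summit was 57.5%, between the values of the classes.

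Short motifs were searched on both strands in the same 200 bases. The ETS core CCGGAA was in 13.9% (11.4 to 16.8) of broad promoters against 22.8% (21.9 to 23.8) of other shared promoters and 11.6% of all shared regions, the only one of the motifs searched whose intervals did not overlap between promoter sets. The strongest summit of broad regions also lay within 100 bases between libraries less often, and the part of that in this share was not tested. The GC box GGGCGG was in 60.2% against 60.6% of promoters (31.6% of all shared regions), the CCAAT box CCAAT in 28.6% against 32.2% (29.0%), the cyclic AMP response element TGACGTCA in 1.90% against 2.79% (1.43%), and the NRF1 motif in 0.948% against 1.73% (0.781%). The AP-1 motif TGANTCA was in 3.16% against 3.04% of promoters. At distal regions it was in 15.9% (12.9 to 19.4) of broad regions against 14.4% (13.8 to 15.1) of others and 9.61% of all shared regions. A match is only a run of letters and says nothing about binding.

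Among the widest promoters, Ppp2r3d (chr9:124422933-124425865) was open over 2741, 2807 and 2933 bases in WT, KO1 and KO2, with 8, 3 and 7 summits. Fzd1 (chr5:4756418-4759069) was open over 2013, 2099 and 2652 bases with 3, 2 and 4 summits. In both the widths were ordered WT, KO1, KO2.

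S100a14 (chr3:90525578-90527590) had the most even widths of this group, 1992, 1981 and 1974 bases, with a CpG ratio of 0.149 over the region. A pair of histone genes, Hist2h2bb and Hist2h3b, lay in 1 region (chr3:96268334-96270379) that was open over 1751, 1762 and 2046 bases. Midn, a factor of protein turnover, was open over 1781, 1940 and 1746 bases, and Ptbp1, a regulator of splicing, over 1707, 1778 and 2221. Tsen34, a subunit of the tRNA splicing endonuclease, and Mboat7, an acyltransferase of phospholipids, were covered together over 1697, 1977 and 1807 bases. Cpeb2, an RNA-binding regulator of translation, was open over 1692, 1705 and 2031 bases, and Leng9 over 1948, 1691 and 1900. Plec, which encodes the cytoskeletal linker plectin, was uneven, with 1206 bases in WT against 2992 and 3624 in Msx2-KO, and stood among the regions with the most summits, 3, 4 and 5.

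Across the genome the broad regions covered 734 of 20780 protein-coding genes (3.53%), or 8.45% of the 8685 genes with a start in a shared region. Those 2 shares are the background for the lists that follow. Of the circadian clock list, 5 of 17 genes were covered (29.4%), and all 17 had a start in a shared region. Dbp, an output factor of the clock, was open over 1153 bases in WT, 1897 in KO1 and 3572 in KO2. Bhlhe40, a repressor of clock genes, was open over 1496, 1680 and 2338 bases, the nuclear receptor gene Nr1d2 over 1181, 1250 and 1357, Tef, a relative of Dbp, over 1330, 1393 and 1527, and Clock itself over 1052, 1091 and 1104. All 5 were narrowest in WT, as were 57.9% of all broad regions.

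Of 23 genes of AP-1 and the stress response, 5 were covered (21.7%). Jun, an AP-1 subunit, was open over 1535, 1720 and 2337 bases, and the immediate early gene Egr1 over 1556, 1595 and 1789. The heat shock gene Hspa1b was open over 1385, 1498 and 1866 bases, Atf4, the effector of the integrated stress response, over 1191, 1219 and 1275, and Maff over 1295, 1256 and 1264. The sort itself handles live tissue, and its part in the openness of stress genes was not tested. Of 67 histone genes 9 were covered (13.4%), 7 of them from the Hist2 cluster on chromosome 3.

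Lists of the follicle and its signals held 1 to 3 covered genes each. Of 16 HFSC factors (12.5% covered, or 16.7% of those with a start in a shared region), Ets2 (1167, 1149 and 1136 bases) and Nfib (1470, 1626 and 1929 bases), a factor of stem cell chromatin, were covered. Of 26 genes of adhesion and matrix, 3 were covered (11.5%, or 20% of those in shared regions). They were Cdh3, the cadherin of the hair germ (1061, 1212 and 1370 bases), and the junction genes Jup (1211, 1178 and 1316) and Pkp3 (2125, 1636 and 1787). Of 19 epidermal lineage factors (10.5%, or 14.3%), Klf4 (1453, 1497 and 1535) and Cebpa (1166, 1735 and 1608) were covered. The TGF-beta and BMP list held 2 of 25 (8%, or 10.5%), Tgif1 and Thbs1, and the Wnt list 2 of 30 (6.67%, or 10%), Fzd1 and the kinase gene Gsk3b. The follicle and basal list held 1 of 15, Cdh3 again (6.67%, or 8.33%). With so few genes in each list, these shares are given only beside the background of 3.53% and 8.45%.

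Of 80 cytosolic ribosomal protein genes, 72 had a start in a shared region and only Rpl7 was covered by a broad region, 1.25% of the list and 1.39% of those in shared regions, against the background of 3.53% and 8.45%. Of 29 homeobox genes 14 had a start in a shared region and 0 were covered, and of 39 Hox genes 9 and 0. At a background of 8.45% lists of that size would hold few covered genes or none. Zinc finger protein genes stood near the background with 16 of 388 (4.12%, or 6.35% of those in shared regions). None of the 11 HFSC marker genes had a start in a broad region. Msx2 itself was no member, with 586, 374 and 659 bases at its promoter, a place that does not test the knockout because the cassette lies elsewhere in the gene. Tgfbr1, the TGF-beta receptor gene, was no member either, with 619, 847 and 1469 bases.

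Of the 485 distal broad regions, 197 (40.6%) lay inside a protein-coding gene, against 46.4% of other shared distal regions, and 189 (39.0%) lay over 50000 bases from a protein-coding start, against 43.3%. The start of a long noncoding RNA gene lay in 36 (7.42%, 5.41 to 10.1), against 3.11% (2.79 to 3.46). A tRNA gene lay wholly or partly in 17 (3.51%, 2.20 to 5.54), against 0.480% (0.364 to 0.632). Distal broad regions were thus richer in starts of long noncoding RNA genes and in tRNA genes, with the longer regions again giving more room.

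The third widest distal region lay 87501 bases downstream of the Arhgap5 start in WT (chr12:52602919-52605125) and covered the small nuclear RNA genes Gm24859 and Gm23296. It was open over 2199, 2061 and 2188 bases with 3, 2 and 3 summits. The fifth lay 72659 bases upstream of Irf2bp2 (chr8:126665535-126668956) and was open over 1986, 2552 and 3412 bases. Another 4 were singled out after their values were seen for the genes nearest to them. A region in an intron of Mitf, the melanocyte master regulator, was open over 2076, 1939 and 2079 bases, and its height, the tags at the strongest summit over the commonest background of the library, was only 13.2, 12.6 and 16.5. A region 23438 bases upstream of Sostdc1 was open over 1854, 1896 and 2043 bases. Upstream of the kinase gene Sgk1, 1815, 2207 and 2219 bases were open. Another region, 169752 bases upstream of the kinase gene Map3k1, was open over 1961, 1925 and 2079 bases.

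tRNA genes, which RNA polymerase III transcribes, were a recurring content. Of 386 tRNA genes in the RefSeq annotation, 59 lay wholly or partly in 26 broad regions (2.30% of the regions) and 89 in other shared regions, where 0.384% of regions held one. The fourth widest distal region (chr3:96499560-96501819, near Hfe2) held 4 of them, n-TKctt16 (in part), n-THgtg8, n-TGtcc7 and n-TEctc13, and was open over 2232, 2023 and 2193 bases. The region with the most, chr13:23516922-23519754 near Hist1h4h, held 5. Across the 26 regions the widths had medians of 1332, 1426 and 1578 bases. Their tags over background had medians of 13.5, 30.5 and 38.6, below the 16.7, 35.7 and 43.0 of all broad regions.

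A few broad regions carried signs of repeated or copied sequence. In 4 the local background of the peak caller was over 10 times that of the library in all 3 libraries, and in 9 at least 50% of the bases were repeats, which made 11 regions in all. The widest region (chr17:39843034-39848702) covers the noncoding gene Gm26917, the ribosomal RNA gene CT010467.1 and the noncoding genes Gm42418 and AY036118, was open over 4212, 3977 and 5642 bases, and had 13, 4 and 9 summits. Its local background was 591, 233 and 337 times that of the library. The second (chr1:24611663-24616095) covers 7 pseudogenes, from Gm28439 to Gm29216, and was open over 2872, 4314 and 2790 bases. Of its 4403 words of 31 bases, 4349 (98.8%) occur in the mitochondrial genome, and no other broad region held such a word. Its local background was 337, 7100 and 3464 times that of the library. A region upstream of Zfp825 (chr13:74528476-74530639) was 99.5% repeats and had 7, 4 and 4 summits. The Ppp2r3d promoter was not among the 11. Its local background was 12.8, 9.04 and 19.7 tags, where the commonest of each library was 1.74, 0.476 and 0.790. The part of misplaced reads in these regions was not tested, and without the 11 regions the promoter share was 56.5% of 1118.

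The genotypes were compared by the tags at the strongest summit over the commonest background of the same library, which was 1.74 tags in WT, 0.476 in KO1 and 0.790 in KO2. This height was not used to choose the regions, although it was measured on the intervals whose widths were. In bulk libraries, more cells with an open region and more cuts per cell cannot be told apart. Broad regions stood at a median of 16.7 times background in WT (3.45 to 1810), 35.7 in KO1 (8.40 to 8118) and 43.0 in KO2 (6.33 to 4580). Other shared regions stood at 9.78, 16.8 and 22.8. Broad regions, wider by the rule that chose them, were thus higher over the library background in each library. Their local background was higher too, at medians of 2.03, 3.63 and 4.43 times that of the library against 1.23, 1.72 and 2.24. The fold enrichment of the authors, taken over the local background, had medians of 6.41, 6.39 and 7.62 against 5.43, 5.00 and 6.73. At promoters alone it was 7.06, 6.93 and 8.13 against 6.98, 5.87 and 8.02.

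Both Msx2-KO libraries were at least 2-fold above WT in 608 broad regions (53.9%, 50.9 to 56.7), against 41.1% of all shared regions. Both were at least 2-fold below in 2 (0.177%), against 0.267%. The median ratio to WT was 2.24 and 2.64 in the broad regions and 1.92 and 2.30 in all shared regions, so most of the difference was common to the libraries as a whole. With each Msx2-KO library divided by its median ratio over all shared regions, 6.82% of broad regions passed the 2-fold limit against 5.84% of all shared regions. By the fold enrichment of the authors, which is taken over the local background, 0.354% passed against 2.46%, so the excess of broad regions over the background share was turned around. Intervals were wider in both Msx2-KO libraries in 650 regions (57.6%, against 62.1% of all shared regions) and narrower in both in 147 (13.0%, against 9.36%). The regions were chosen by width, mainly that in WT, so these width shares are a description only and cannot be read as a genotype difference.

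**Figure D5:**
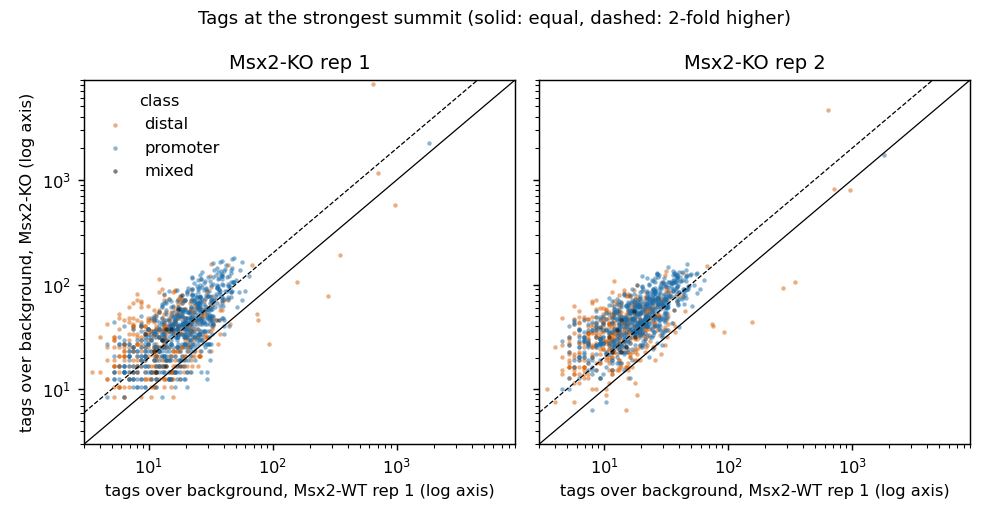
Tags over background at the strongest summit of each of the 1129 broad regions in WT (x axis) and in each Msx2-KO library (y axis), both on log axes, coloured by class, with a solid line at equal values and a dashed line at 2-fold higher in Msx2-KO. The cloud lies above the solid line around ratios of 2.24 and 2.64, and a few repeat-rich or copied regions lie far to the right.

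Regions were ranked by the Msx2-KO library nearer to WT, so that both had to differ. Of the distal broad regions 53.0% were at least 2-fold higher in both Msx2-KO libraries, against 42.7% of other shared distal regions. Among broad promoters the share was 54.5%, against 36.9% of other shared promoters. The 5 with the largest excess in Msx2-KO by this rank were all distal, and the order was set by the values themselves. The pseudogene stretch on chromosome 1 had the highest ratio in KO1, 12.7, but 7.18 in KO2, and so was not among them. A region inside Myof, a membrane repair gene (chr19:37959124-37960224), stood at 4.60 times background in WT, 42.0 in KO1 and 48.1 in KO2. Its widths were almost the same, 1008, 1049 and 1094 bases. A region inside the imprinted gene Peg3, 1976 bases downstream of its start in WT, stood at 12.1, 113 and 108. Regions upstream of Cyp2b13 (8.06, 71.4 and 69.6), upstream of Fez2 (5.75, 48.3 and 62.0) and inside Fhit (8.06, 81.9 and 67.1) followed. In these 5 regions the Msx2-KO libraries were above WT, and each WT value rested on 8 to 21 tags. By the fold enrichment of the authors, over the local background, the gaps were smaller. In WT, KO1 and KO2 it was 3.29, 7.09 and 8.09 in Myof, and 3.49, 5.96 and 5.26 in Peg3. Near Cyp2b13 it was 5.01, 7.69 and 9.18, near Fez2 3.84, 7.25 and 9.61, and in Fhit 3.95, 7.82 and 7.09.

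In the other direction, a region 4234 bases upstream of Tmem125 (chr4:118547213-118548729) stood at 277 times background in WT against 77.7 and 92.4 in Msx2-KO, and was open over 1517, 1477 and 1487 bases. A region near Ly6c2 stood at 93.2 against 27.3 and 35.4. The next 3 lay inside Smo (349 against 191 and 106), nearest to Afdn (75.9 against 46.2 and 40.5) and near Zfp825 (157 against 105 and 44.3). Of these 5 regions 4 were at least 50% repeats, up to 99.6% inside Smo, and the Tmem125 region was 1.58%. The part of repeats in the height was not tested. By the fold enrichment of the authors, over the local background, the gaps were smaller here too, and WT was less than 2-fold above each Msx2-KO library. In WT, KO1 and KO2 it was 11, 7.67 and 9.24 near Tmem125, and 11.4, 5.88 and 6.59 near Ly6c2. Inside Smo it was 14.8, 10.7 and 9.83, near Afdn 9.14, 6.99 and 8.08, and near Zfp825 8.47, 6.99 and 5.42.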

How the data were processed

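Omni-ATAC-seq libraries of sorted HFSCs (1 of Msx2-WT, called WT, and 2 of Msx2-KO, called KO1 and KO2) were read from the peak lists, 1 for each library and not pooled. According to the methods of the study, trimming was by Trimmomatic and alignment to GRCm38 by BWA-MEM, mitochondrial reads were dropped, and MACS2 ran model-free on shifted, extended tags, duplicates included. Mitochondrial summits were nevertheless present in the lists. Extension widens intervals, and widths move with depth and background. The MACS2 version is not given in the sources used here. The authors deposited a fold enrichment, a −log10 p and a −log10 q for each summit, along with a score that was not used. The lists reach a p-value of 0.01 and not only the q-value limit named in the methods, and every interval was kept.

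Lines with the same start and end were read as summits of 1 interval. The whole tag number and local background behind each summit were solved from its fold and −log10 p (tolerance 0.002), which failed for 12, 12 and 9 summits in WT, KO1 and KO2. Kept duplicates are not independent molecules. The commonest background (1.74, 0.476 and 0.790 tags) stood for depth, since total reads are not in the lists. The solution of tag numbers and the merging and width rule were tested on simulated data, and the use of the commonest background for depth was not. Starts came from GENCODE M21, tRNA genes and sequence from RefSeq GRCm38.p6. Shares have 95% Wilson intervals, and no p-value was computed.

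Groups followed the labels. The members and gene lists were chosen with earlier results of these data known. Named regions were Msx2 and Tgfbr1, the 10 widest promoters and 5 widest distal regions by their narrowest library, the 5 with the most summits, the 5 with the largest ratio in each direction by the Msx2-KO library nearer to WT, list genes, and regions just inside and outside the limit. Distal regions are named by the nearest start. One of the widest promoters is not reported here. Alternatives were other width, q-value, list-length, chromosome, window, fold and scaling choices, and leaving out each library. The software was pysam 0.24.0, matplotlib 3.10.9, scipy 1.17.1, pandas 2.3.3 and numpy 2.4.6 under Python 3.11.15.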

Additional observations from a re-analysis of the deposited data

Results flagged for a closer look

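Chromosomes X and Y and the mitochondrial genome were outside the report, and some values there were above those of WT. Wide intervals of at least 1000 bases on chromosome X numbered 47 in WT, 150 in KO1 and 359 in KO2, and the autosomal counts rose in the same order, 2631, 5273 and 14015. On chromosome Y they numbered 2, 2 and 4, with median tags over background of 35.7, 127 and 29.7. On the mitochondrial genome the wide intervals of KO1 had a median of 19224 tags over background against 826 in WT, with 2 such intervals in each, and KO2 had none.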

How the results depend on the processing

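The number of broad regions rested on the width limit and on WT. It was 1129 as reported, 3107 at a limit of 800 bases and 76 at 1500 bases, and leaving out 1 library gave 1180 to 3984, with 1180 without KO2, 1856 without KO1 and 3984 without WT. It stayed within 1.5 times the reported number in the other 5 settings, from 1069 with a −log10 q above 2 to 1154 with X and Y. The promoter share moved outside its interval to 59.4% at 800 bases and to 44.5% with a window of 500 bases, and ranged from 50.4% (without WT) to 56.2% with a library left out. Summits per interval averaged 1.66 over libraries, 1.42 at 800 bases, 2.57 at 1500 bases and 1.35 to 1.71 with a library left out, the lowest without WT. The share at least 2-fold higher in both Msx2-KO libraries was 50.1% at 800 bases, 73.1% at 1.5-fold, 22.8% at 3-fold, 6.82% after scaling to the median of all shared regions and 0.354% by the deposited fold enrichment. It was 57.2% to 63.4% with 1 Msx2-KO library left out, where only 1 library had to pass. The median G+C content at the summit was 58% with a −log10 q above 2 and with lists of equal length, 58.5% at 800 bases, 54.8% at 1500 bases, 55.2% over the whole region, and 56.5% to 57.5% with a library left out. Except where the rule itself was changed, the cause of these moves was not tested. Leaving out the 11 repeat-rich or high-background regions, an alternative chosen after seeing the data, gave 1118 regions and moved no share outside its interval, with 54.2% at least 2-fold higher in both Msx2-KO libraries. No paired analysis was possible because WT and Msx2-KO have only replicate number 1 in common. A summit rested on as few as 5 tags in WT and 3 in KO1 and KO2, and the part of depth in these counts was not tested.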

Other observations

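Intervals of any width on chromosome Y numbered 169 in WT, 13 in KO1 and 20 in KO2, and on chromosome X they numbered 1136, 1548 and 2792. The sex of the mice behind each library is not given in the sources used here. Among chromosomes 1 to 19 the share of shared regions that were broad ran from 4.45% (95% Wilson interval 3.40 to 5.80) on chromosome 8 to 7.47% (6.12 to 9.09) on chromosome 7.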
